A study of Caenorhabditis elegans with 6 samples.

Results

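The spectrin, ankyrin and spectraplakin genes of Caenorhabditis elegans examined here were spc-1, sma-1, unc-70, unc-44 and vab-10. They were found as the probe sets whose only gene symbol in the platform annotation was one of these names, which gave 23 of the 22548 probe sets that are not array controls. Of these, 18 were bright enough to be tested, 2 for spc-1, 2 for sma-1, 2 for unc-70, 8 for unc-44 and 4 for vab-10. RNA came from whole embryos of the wild-type strain N2 and of the mutant strain yap-1(ys38), obtained by bleaching egg-bearing adults, with 3 biological replicates of each strain and 1 Affymetrix array per replicate. No other allele or treatment is named in the labels, which do not give the age of the embryos or say what the ys38 allele changes. The study compared the strains to look for genes through which the Hippo pathway keeps cells polarised, yap-1 being the worm counterpart of the coactivator YAP that this pathway restrains.

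Spectrins are long, flexible rods of alpha and beta chains that lie under the plasma membrane, crosslink actin filaments and give cells and axons resistance to stretch. Ankyrins tie the beta chains to channels, transporters and adhesion molecules in the membrane, and spectraplakins are giant crosslinkers that join actin to microtubules or to intermediate filaments. In the worm embryo the apical spectrin network helps the epidermis to draw the body out into a worm shape, and the spectraplakin anchors the epidermis to muscle and cuticle. The conventional beta spectrin keeps the axons of moving worms intact. Each gene has several probe sets on the array, and their names carry a suffix. Of the 23, 8 end in a plain at and were designed for a single transcript, 11 end in s_at and match related transcripts, and 4 end in x_at and may also bind RNA of other genes.

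Wild type replicate 2 stood apart and was set aside by the study, so the strains were compared on wild type replicates 1 and 3 against yap-1(ys38) replicates 1, 2 and 3, with replicate 2 shown beside them. Values are MAS5 intensities, which the authors scaled to a common level in each array, and the median over probe sets was 86.6 in that array and 118 to 133 in the other 5. RNA quality was read from control transcripts as how far their 3-prime signal exceeds their 5-prime signal, a larger excess meaning fewer complete transcripts. The mean excess on the log2 scale was 3.64 and 3.74 in the wild-type arrays numbered 2 and 3 and 2.68 to 3.07 in the other 4. All 4 yolk protein genes and all 4 sperm genes measured, marks of carried-over adult material, were seen, with summed intensities of 126 to 6877 and 181 to 1290.5 in the 2 wild-type arrays compared and 236 to 4466 and 451 to 1313 in the mutant. Their part in the comparison of the strains was not tested. Markers of the early embryo, epidermis, nerve, muscle and gut were all measured, and none lay below the filter intensity of 53.5 in every array. The yap-1 probe set itself gave 267, 443 and 555 in wild type and 371, 260.4 and 302 in the mutant, in the order of the numbers 1, 2 and 3. Where it lies relative to the allele is not known, so these values do not check the genotype.

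None of the 5 genes was called as different between the strains at any tested probe set. Of the 18 tested probe sets 8 stood higher and 10 lower in yap-1(ys38), the log2 fold changes ran from -0.31 to 0.32, and 0 passed the test (limma, adjusted p = 1 for each; 0 at an unadjusted p under 0.05, lowest 0.121). Over all 13529 probe sets 0% were called and 1.04% had an unadjusted p under 0.05. With the replicate number as a block, 0 of the 18 and 12 of all probe sets (0.0887%) were called by limma. By the methods' t-test without adjustment 0 of the 18 passed, against 1.49% of all. The median log2 fold change was -0.02 for the 18 and 0.01 for all probe sets tested. For 15 of the 18 the 95% confidence interval lay within a 2-fold change in either direction, so a larger difference than that is outside their intervals.

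spc-1 encodes alpha spectrin, the chain that pairs with either beta chain. At probe set 173871_at it gave 8143, 6021 and 8261 in wild type and 7038, 7929 and 8131 in yap-1(ys38), each in the order of the numbers 1, 2 and 3, which is kept for all values that follow. The mutant arrays all lay below both wild-type arrays compared, number 3 by the narrowest margin, and wild type replicate 2 was the lowest of all. The log2 fold change was -0.09 (95% confidence interval -0.40 to 0.21). At 192356_s_at it read 5326, 3973 and 4328 in wild type and 4636, 4907 and 4700.3 in the mutant. Here the wild-type arrays enclosed the mutant ones, and the log2 fold change was -0.02 (-0.36 to 0.33). Both probe sets therefore bound any difference in spc-1 to at most 1.32-fold and 1.28-fold in either direction within their intervals.

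sma-1 encodes the heavy beta spectrin of apical membranes, and its loss leaves short, wide larvae because the embryo elongates too slowly. At 175797_at it read 6475, 6840.5 and 6766 in wild type and 5746, 6463 and 7071 in yap-1(ys38). The strains overlapped, and wild type replicate 2 lay among the other arrays. The log2 fold change was -0.05 (95% confidence interval -0.38 to 0.28). At 191621_s_at sma-1 read 2362, 3097 and 2642 in wild type and 2019.6, 2446 and 2709.7 in the mutant, and the log2 fold change was -0.07 (-0.49 to 0.34). At both probe sets the lowest array was yap-1(ys38) replicate 1, and at the second the highest was wild type replicate 2.

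unc-70 encodes the conventional beta spectrin, without which moving worms break their axons. At 175706_s_at it read 3365, 2274 and 3032 in wild type and 3119, 3019.7 and 3341 in the mutant. The 5 arrays compared lay within 0.16 of each other on the log2 scale, and wild type replicate 2 lay below all of them. The log2 fold change was -0.02 (95% confidence interval -0.36 to 0.33). At 175686_s_at it read 816, 917 and 805 in wild type and 1061, 912 and 943 in yap-1(ys38). Here the mutant arrays lay above wild type replicates 1 and 3, with a log2 fold change of 0.26 (-0.17 to 0.69), while wild type replicate 2 read within them. This probe set and 173871_at of spc-1 were the 2 of 18 at which the strains did not overlap over the 5 arrays, one in each direction, against 10.8% of all probe sets tested in either direction and 5.9% with the mutant higher. With wild type replicate 2 included, 0 of 18 were without overlap, against 4.89% of all.

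unc-44 encodes the worm ankyrin, whose giant neuronal forms organise the axon and whose shorter forms are found in many tissues. Its 8 tested probe sets were split evenly, with 4 higher and 4 lower. The brightest, 172153_x_at, read 5638, 3873 and 4739 in wild type and 6787, 6256 and 5633 in the mutant. The strains overlapped only between number 1 of wild type and number 3 of the mutant, and the log2 fold change was 0.26 (95% confidence interval -0.08 to 0.61, unadjusted p = 0.121, the lowest of the 18 by limma in this fit). Between arrays of the same number the mutant stood higher by 0.27, 0.69 and 0.25 on the log2 scale, the 0.69 being against wild type replicate 2. Every such pair was also higher in the mutant at 171738_x_at and at 194232_x_at of vab-10. The share of all probe sets that do so was not counted, so nothing is drawn from it. Blocked on the number, limma gave 0.26 on the 5 arrays (unadjusted p = 0.132, adjusted p = 1) and 0.40 on all 6 (unadjusted p = 0.0335, adjusted p = 0.93). On the 5 arrays yap-1(ys38) replicate 2 has no partner of its number, so that estimate rests on the 4 arrays numbered 1 and 3. In the opposite direction, 173125_s_at read 3600.2, 3499 and 3221 in wild type and 2768, 2508 and 3379 in the mutant. Its log2 fold change was -0.25 (-0.65 to 0.15), with yap-1(ys38) replicate 3 between the wild-type arrays.

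The other probe sets of unc-44 lay nearer to no difference or were dimmer. 171738_x_at read 4683, 4602 and 5830.1 in wild type and 6115, 4669.6 and 5923 in the mutant (log2 fold change 0.08), and 172123_x_at 4551, 3684 and 5299 against 4744, 4635 and 5151 (-0.02). 181045_at read 1282, 887 and 1109.85 in wild type and 1127, 1169 and 1472 in the mutant (0.06). These 3 probe sets overlapped between the strains. 174033_at read 1659.5, 747 and 1936 in wild type and 1107, 2148 and 2071 in yap-1(ys38), with a log2 fold change of -0.08 (95% confidence interval -0.73 to 0.58). Its lowest array in each strain was a different replicate number, 2 in wild type and 1 in the mutant. The dimmest, 176663_s_at at 123 to 243 and 175561_s_at at 75.4 to 114 over the 6 arrays, had log2 fold changes of -0.31 (-1.04 to 0.42) and 0.24 (-0.54 to 1.02). The first was -0.060 without yap-1(ys38) replicate 2 and the second 0.021 without wild type replicate 3.

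vab-10 encodes the spectraplakin, which has a plectin-like form in the epidermal hemidesmosomes and a form that binds microtubules. At 175291_at it read 1462, 471 and 1866 in wild type and 1524, 1083 and 1503 in yap-1(ys38). At 182228_s_at it read 603, 202 and 409 in wild type and 593, 681 and 592 in the mutant. In both, the mutant overlapped wild type replicates 1 and 3, and replicate 2 lay far below every other array. The log2 fold changes had opposite signs, -0.29 (95% confidence interval -0.79 to 0.21) and 0.32 (-0.22 to 0.87). With wild type replicate 2 included they were 0.32 and 0.75, so at 175291_at the direction turned. Both values also rested on single wild-type arrays, being -0.46 and 0.60 without replicate 1 and -0.11 and 0.042 without replicate 3. 194232_x_at read 452, 330.4 and 240.0 in wild type and 492, 528 and 259 in the mutant (0.30, -0.57 to 1.18). 191942_s_at read 176, 64.6 and 128 in wild type and 181, 182 and 115 in the mutant (0.06, -0.71 to 0.83). The arrays of the strains overlapped at all 4 probe sets.

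**Figure D1:**
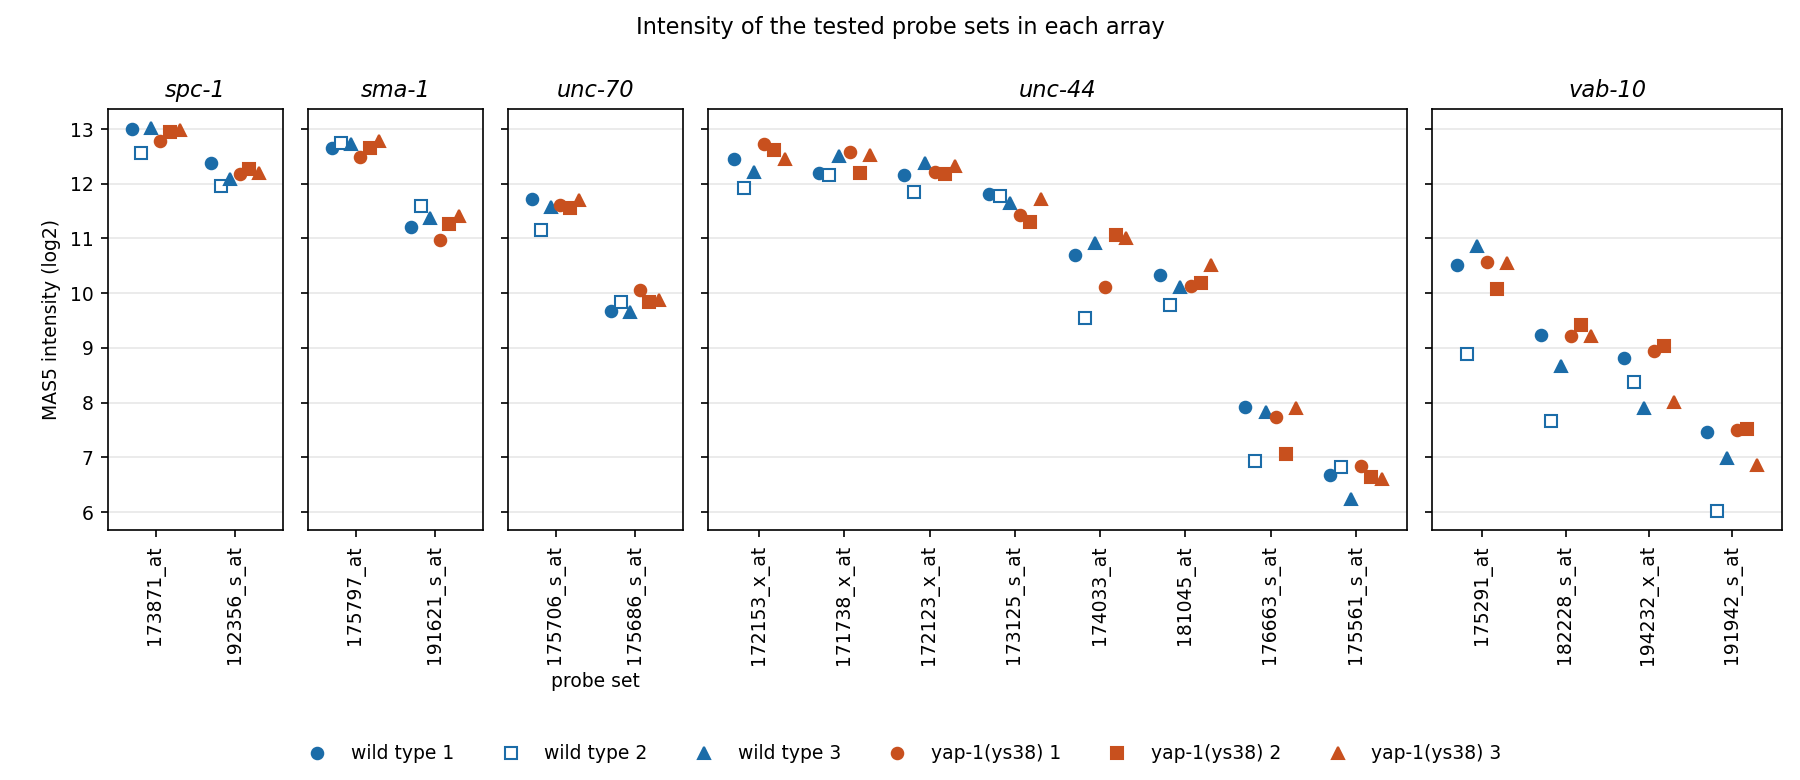
Log2 MAS5 intensity (vertical axis) of the 18 tested probe sets (horizontal axis, grouped by gene) in each of the 6 arrays, 1 point per array, blue for wild type and orange for yap-1(ys38), with circles, squares and triangles for replicates 1, 2 and 3 and an open square for wild type replicate 2. Blue and orange points overlap at most probe sets, and the open square lies lowest at 12 of 18. Signals of different probe sets are not comparable in level.

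Probe sets of the same gene gave different signs in unc-70, unc-44 and vab-10. The difference between probe sets was measured as the within-array log2 ratio of each pair of tested probe sets of a gene, compared between the strains. Where each probe set lies in its gene, and which forms it reads, is not known. A difference between probe sets can therefore not be read as one between forms of the gene. In spc-1 and sma-1 the single pair differed by 0.08 and 0.03 between strains. In unc-70 the ratio of 175686_s_at to 175706_s_at was 0.28 higher in yap-1(ys38), with no overlap. In unc-44, 4 of 28 pairs did not overlap, and 173125_s_at was a member of 3 of them, its ratio being lower in the mutant each time by 0.31 to 0.51. In vab-10, 0 of 6 pairs separated the strains, although the largest difference of all, 0.61, was there. In all, 5 of 37 pairs did not overlap, against 13% of the 3121 such pairs over all genes. When the ratios of all 3121 pairs were fitted with limma on the same 5 arrays, 0 of the 37 were called, against 0% of all (lowest unadjusted p 0.0892, between 172153_x_at and 173125_s_at, adjusted p = 1). At an unadjusted p under 0.05 there were 0 of 37, against 2.66% of all pairs.

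When each gene was represented by the mean log2 intensity of its tested probe sets and the fit was run over all 10237 genes, the log2 fold changes were -0.06 for spc-1, -0.06 for sma-1, 0.12 for unc-70, -0.001 for unc-44 and 0.10 for vab-10. Their 95% confidence intervals were -0.34 to 0.23, -0.41 to 0.29, -0.23 to 0.48, -0.38 to 0.37 and -0.44 to 0.63 in the same order. Averaging placed every gene near no difference, with the widest interval for vab-10 (limma, adjusted p = 1 for each).

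**Figure D2:**
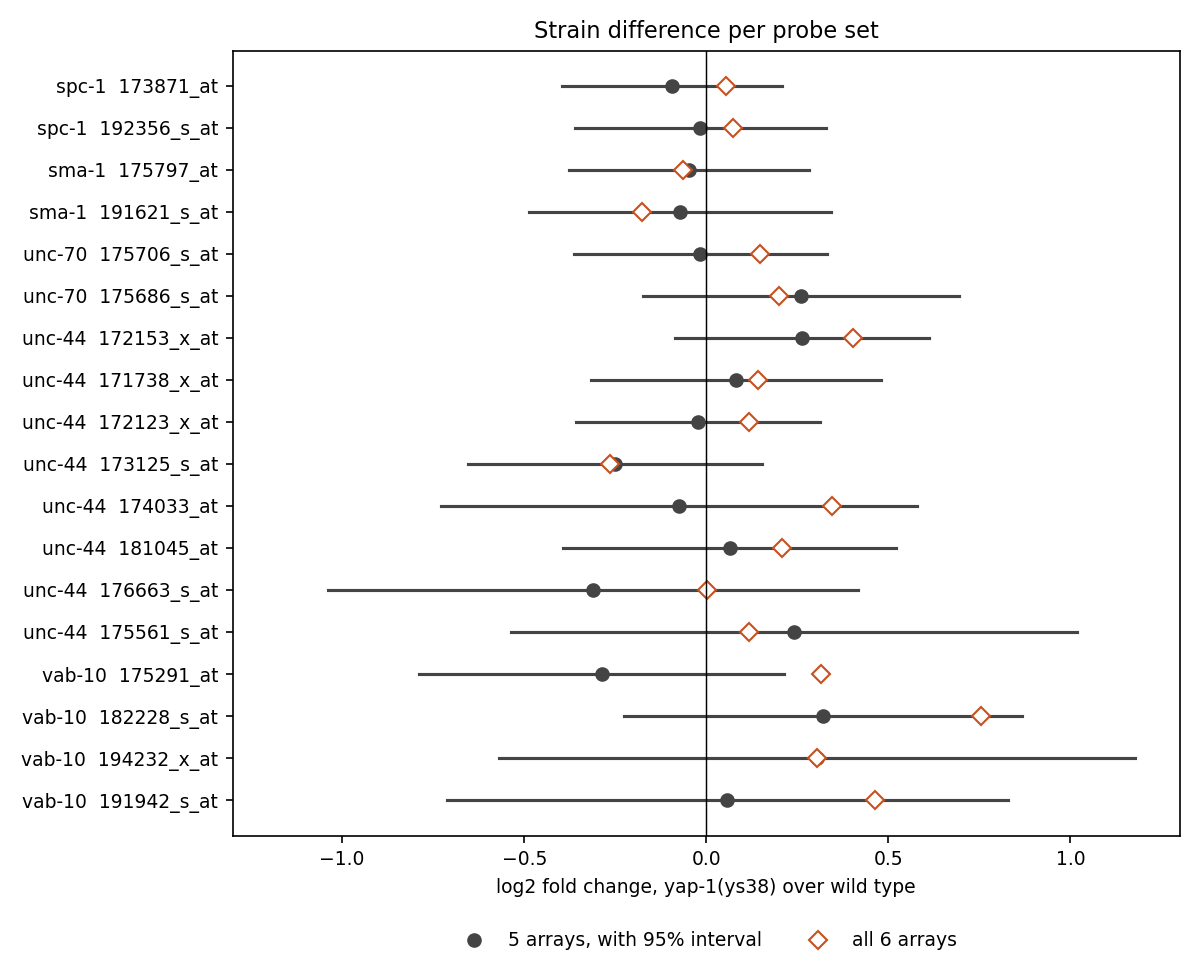
Log2 fold change of yap-1(ys38) over wild type (horizontal axis) for each tested probe set (vertical axis). Filled circles with lines are the estimates and 95% intervals from wild type replicates 1 and 3 against 3 mutant arrays, and open diamonds the difference of means with all 6 arrays. All 18 intervals include 0, and with wild type replicate 2 included 7 diamonds lie on the other side of 0 from their circle.

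The array most often lowest at these probe sets was wild type replicate 2, although at some of them, as both of sma-1, another array lay furthest from the mean. It gave the lowest of the 6 values at 12 of the 18 probe sets, against 34.7% of all probe sets tested, and the highest at 1, against 32.4%. It read at least 2-fold below the mean of wild type replicates 1 and 3 at 4 of 18, a share near the 18.3% of all. The 4 were vab-10 at 175291_at (3.51-fold below), 182228_s_at (2.46-fold) and 191942_s_at (2.32-fold) and unc-44 at 174033_at (2.40-fold). sma-1 did not share this, standing 0.05 and 0.31 above the mean of wild type replicates 1 and 3 on the log2 scale, and spc-1 stood 0.45 and 0.27 below it. At the brightest probe set of each gene a value at least 2-fold below was found for 1 of the 5, vab-10, near the 19.6% of all 10237 genes. This is a single array, so these differences have no replicate check.

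The genes also disagreed within themselves in that array. vab-10 at 194232_x_at read 330.4 in wild type replicate 2, between the 452 and 240.0 of replicates 1 and 3, while the other 3 tested vab-10 probe sets had their lowest value there. unc-44 stood from 1.26 below to 0.37 above the mean of replicates 1 and 3 on the log2 scale, with 6 of 8 probe sets lowest in replicate 2. unc-70 stood 0.49 below at 175706_s_at and 0.18 above at 175686_s_at. The median over the 18 was -0.42, against 0.01 over all probe sets tested.

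Markers of some tissues were low in the same array. The summed intensity of 5 body wall muscle markers was 5424 there, while the other 5 arrays gave 13733 to 20158, and that of 6 neuron markers was 7230.5 against 9145 to 12222. At least 2-fold below the other wild-type arrays stood 4 of the 5 muscle markers and 3 of the 6 neuron markers, hlh-1 and unc-119 being among those that did not. The 5 intestine markers summed to 2791 against 3333 to 4702, but among them only ifb-2, an intestinal intermediate filament, was low (1034.5 against 1985 to 3492). The gut transcription factors elt-7 and end-1 had their highest values there, 698 and 486. The 5 epidermis markers summed to 11798 against 11277 to 14607, within the range of the others, but they did not move together. There che-14, dpy-7 and elt-3 had their lowest values of all arrays, 538, 1938 and 1611. By contrast elt-1 had its highest, 1817, and lin-26, at 5894, lay among the others. The 6 early embryo markers summed to 23158 against 15914 to 20002, the highest of all, although skn-1 among them was lowest there, at 749. Yolk and sperm genes were highest there too, at 11767 and 2073. The part of these tissues and of embryo age in the low vab-10 and unc-44 values was not tested, and in whole embryos fewer cells of a type and less RNA per cell cannot be told apart. The 3-prime to 5-prime excess was also high in wild type replicate 3, where vab-10 had its highest value at 175291_at, 1866, and its lowest at 194232_x_at, 240.0. The part of RNA quality in these values was not tested.

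**Figure D3:**
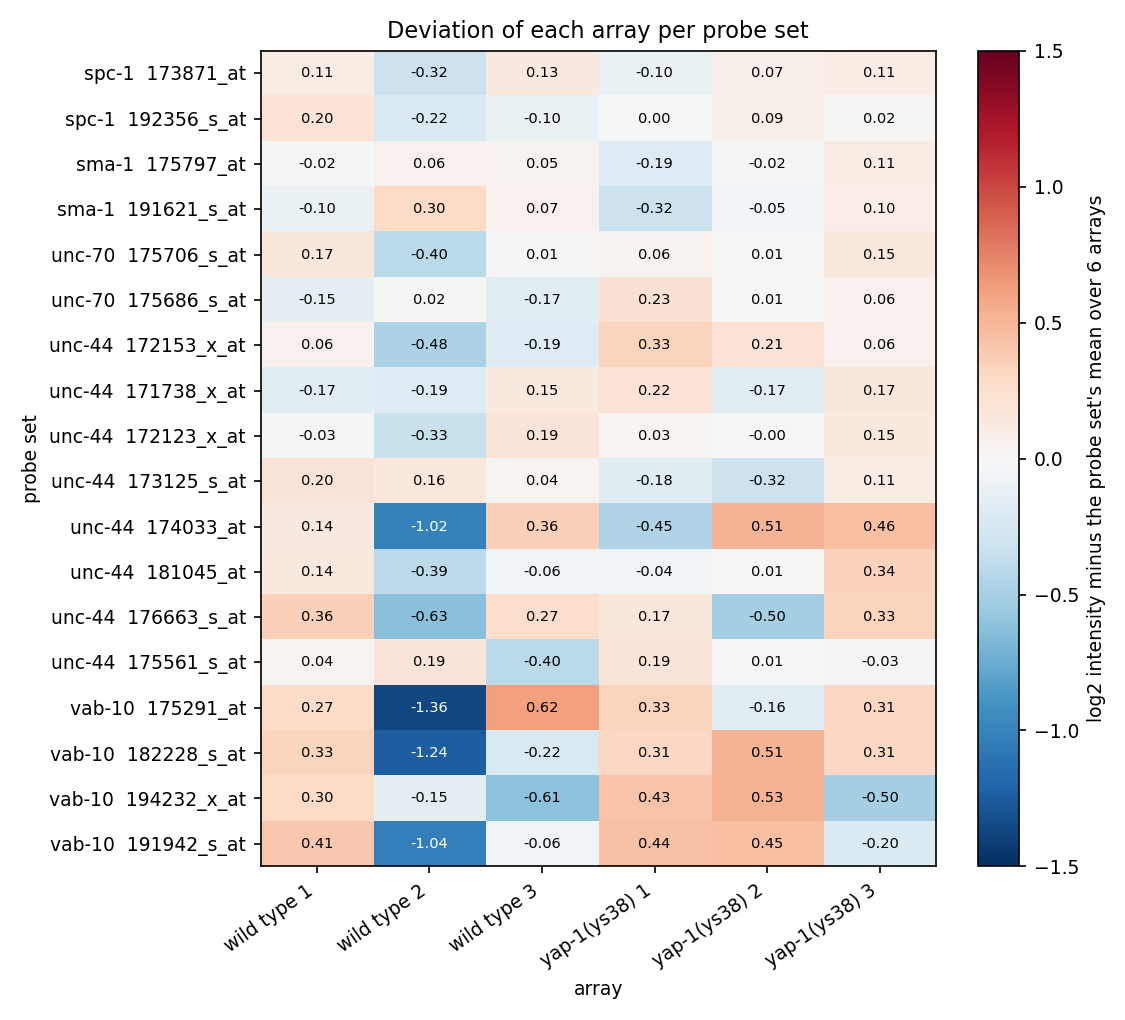
Log2 intensity of each tested probe set (rows) in each array (columns) minus that probe set's mean over the 6 arrays, printed in each cell and coloured from blue (below) to red (above). Wild type replicate 2 reaches -1.36, -1.24 and -1.04 at 3 vab-10 probe sets and -1.02 at 174033_at of unc-44, while both sma-1 rows stand above their mean in that array.

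Deviations from the strain means correlated positively between same-numbered arrays over the probe sets tested. This does not establish that the arrays are paired, and the titles do not say what the number marks. The genes were also compared between numbers 3 and 1 with strain in the fit. Of the 18 probe sets 10 stood higher and 8 lower in number 3, and 0 passed the test over all 6 arrays (limma, 0.037% of all probe sets called). Yolk and sperm genes, the marks of adult material, stood far lower in number 3. Their median log2 differences were -5.57 and -2.26, and the yolk gene vit-2 was called (limma, adjusted p = 0.021). The part of adult material in the values of the 18 was not tested. At an unadjusted p under 0.05 there was 1 of 18, against 7.37% of all. It was 194232_x_at of vab-10, which read 452 and 492 in the arrays numbered 1 and 240.0 and 259 in those numbered 3 (log2 difference -0.92, 95% confidence interval -1.65 to -0.19, adjusted p = 0.596). The difference was nearly 2-fold in both strains, and the arrays of number 2 read 330.4 in wild type and 528 in the mutant.

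The call for this probe set depended on which arrays entered the fit. With the 4 arrays numbered 1 and 3 alone, where 6.9% of all probe sets were called, its adjusted p was 0.0198 by limma, and it was the only one of the 18 to pass. The other vab-10 probe sets had log2 differences of 0.17 at 175291_at, -0.28 at 182228_s_at and -0.56 at 191942_s_at. The last ran from -1.01 without wild type replicate 3 to -0.10 without yap-1(ys38) replicate 3, and the first 2 changed sign on leaving out an array. 194232_x_at belongs to the class that may bind RNA of other genes. Next in that fit came 174033_at of unc-44, at 1659.5 and 1107 in number 1 and 1936 and 2071 in number 3 (log2 difference 0.56, adjusted p = 0.0899 by limma). sma-1 stood higher in number 3 at both of its probe sets, by 0.18 and 0.29 on the log2 scale, without passing the test in either fit.

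Of the 5 probe sets too dim to test, 172983_s_at of spc-1 read 0.552 to 30.02 over the 6 arrays and 190098_s_at of unc-70 10.2 to 96.9. 175181_at of unc-44 read 6.44 to 48.5, 177636_at of vab-10 2.60 to 53.0 and 194015_at of vab-10 6.55 to 57.6. All of them had mean intensities below the filter of 53.5, and values this low vary widely between arrays of a strain. 175181_at, for example, read 48.5, 17.2 and 48.3 in wild type and 34.3, 17.2 and 6.44 in the mutant. There the mutant arrays all lay below wild type replicates 1 and 3, which were nearly equal, while wild type replicate 2 lay within the mutant range. This difference was not tested.

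The proteins that work with these genes were followed in 5 lists holding 53 names, of which 50 were measured and 47 tested, each at its brightest tested probe set. None of the 47 was called in either direction (limma, 0% called over all 10237 genes, and 0 of the 47 at an unadjusted p under 0.05). For some the 95% confidence interval still reached beyond a 2-fold change, as for nfm-1 (-1.12 to 0.75). Among 9 membrane skeleton partners, 4 stood higher and 5 lower, with a median log2 fold change of -0.01, against -0.004 over all genes. frm-4, a protein with a FERM domain, stood at 0.08 (95% confidence interval -0.38 to 0.54), and frm-7, of the same family, at -0.29 (-0.81 to 0.23). erm-1, the worm ezrin that couples actin to apical membranes, read 3803, 2529 and 4064 in wild type and 4000.2, 3874 and 3833 in the mutant, so the strains overlapped closely (-0.01).

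Among 8 ankyrin ligands and axonal partners 2 stood higher and 6 lower (median -0.09). sax-7, the L1-type adhesion molecule that binds ankyrin, stood at 0.27 (95% confidence interval -0.33 to 0.87) and at 0.03 to 0.39 at its 3 other probe sets. dlg-1, the Discs large scaffold of the epithelial junction, stood at -0.12 (-0.41 to 0.18). Of 10 genes in the epidermal hemidesmosome list, 3 stood higher and 7 lower (median -0.06), with the intermediate filament gene ifa-3 at 0.08 (-0.43 to 0.59). The list is broader than the partners of the plectin-like form of VAB-10, as it holds the basement membrane gene unc-52. eps-8, an actin-capping protein, stood at -0.30 (-0.75 to 0.14).

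Of 8 genes in a list of other actin crosslinkers and spectrin-repeat proteins, 1 stood higher and 7 lower (median -0.15). This list also holds dyb-1, stn-1 and stn-2, which belong to neither class. unc-73, the Trio exchange factor, stood at 0.14 (95% confidence interval -0.35 to 0.63), with its 3 other probe sets from -0.40 to 0.59. anc-1, the giant protein that anchors nuclei to actin, read 6429, 5415 and 8759 in wild type and 2985, 6171 and 8996 in the mutant. Its difference of -0.45 (-1.32 to 0.42) came with a wide overlap, and its 3 other probe sets gave -0.04 to 0.07. Of 12 genes of the actomyosin machinery that drives embryonic elongation 8 stood higher and 4 lower (median 0.09), with pix-1, an exchange factor for Rac, at 0.39 (-0.36 to 1.14) and mlc-4, the regulatory myosin light chain, at -0.10 (-0.45 to 0.24).

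**Figure D4:**
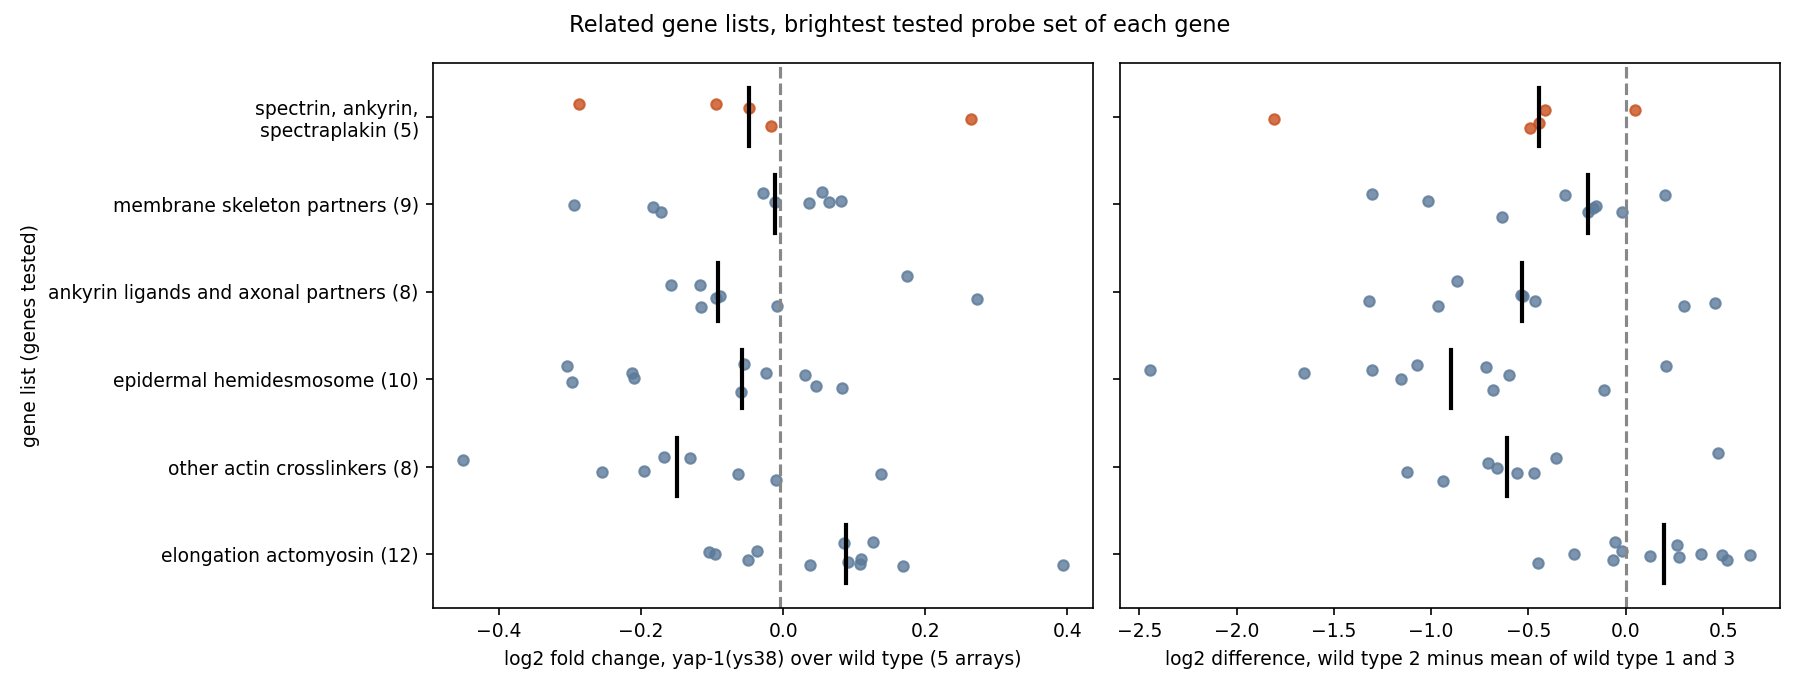
Brightest tested probe set of each gene in the 5 genes (orange) and the 5 related lists (blue), 1 point per gene, with black bars for medians and a dashed line for the median of all genes tested. The left panel gives the log2 fold change of yap-1(ys38) over wild type and the right panel the log2 difference of wild type replicate 2 from the mean of wild type replicates 1 and 3, on different horizontal scales; medians run from -0.15 to 0.09 on the left and from -0.90 to 0.19 on the right.

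Likeness over the 6 arrays was measured as the Pearson correlation of log2 intensities with the brightest probe set of each gene, among 6300 other genes with a standard deviation of at least 0.3. With 6 arrays, so many genes and wild type replicate 2 apart, high values arise readily, and they describe these arrays only. vab-10 was most like ctsa-3.1 (r = 0.999) and nlt-1 (0.998), both also lowest in wild type replicate 2. nlt-1 read 2467, 851 and 3111 in wild type and 2550.1, 1908 and 2716 in the mutant, in the same order of arrays as vab-10 except between replicates 1 and 3 of the mutant. unc-44 was most like nhr-190, a gene of the nuclear hormone receptor family (0.996), and W03B1.3 (0.986), spc-1 like C34C6.3 (0.997) and T28H11.8 (0.995), and unc-70 like C26B9.2 (0.997) and Y53F4B.45 (0.996). sma-1 was most like T24B8.7 (0.974) and T10D4.6 (0.970), and both of these were highest in wild type replicate 2.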

How the data were processed

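The values are intensities that the authors deposited: MAS5 signals of 6 Affymetrix arrays, scaled globally per array, per the series' design text and the submitters' processing notes (MAS5). Global scaling hides a change in total RNA per embryo. The authors also filtered by detection call, but no call was used here.

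After removal of 77 array controls, values were log2-transformed, and the 13529 probe sets whose geometric mean exceeded 53.5 (the 40th percentile) were tested. The test was limma 3.58.1 (R 4.3.3), two-sided, with lmFit, an intensity trend in eBayes, Benjamini-Hochberg adjustment over all probe sets and a threshold of 0.05. Intervals are 95%, and their precision is limited by the number of arrays. Strains were compared on the 5 arrays the study kept. Numbers 3 and 1 were compared on all 6 with strain in the fit. The fits were tried on simulated data.

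Genes were named from probe sets with 1 symbol in the platform annotation (20766, of which 20701 matched the RefSeq table of assembly WBcel235, while 887 had several and 895 none). List genes named are those with the lowest p in each direction, besides erm-1, chosen after its values were seen. The 2 most alike genes are named per member. The members and lists were chosen with earlier results of these data known. ifa-2 and mua-6 of the hemidesmosome list are names of the same gene.

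Replicate numbers come from the titles. Deviations from strain means correlated at 0.364, 0.345 and 0.445 between same-numbered arrays and at 0.015 or less between others. Such deviations cancel out within a strain, so a positive value for same-numbered arrays pushes the other values down. The contrast therefore cannot by itself establish that the numbers pair the arrays. Ratios of probe sets of a gene were fitted with limma without the trend, a test added after the data were seen. Blocking on the number was tried as well. Other alternatives were the arrays included, normalization, filter, floor, intensity trend and the methods' Welch test.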

Additional observations from a re-analysis of the deposited data

How the results depend on the processing

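No tested probe set of the 5 genes was called between strains under any alternative (lowest adjusted p 0.817 and lowest unadjusted p 0.0335 by limma; 0 of 18 by the methods' t-test at their threshold), nor any related gene, except that the methods' t-test passed 1 of the 47, unc-119. Over all probe sets the count called was 0, 12 with the replicate block on 5 arrays, 0 with it on 6, 0 to 3 on leaving out 1 replicate, the 3 without wild type replicate 1, and 202 by the methods' t-test unadjusted. The block called 0 of the 18. With all 6 arrays, with or without the block, the log2 fold change turned to 0.055 and 0.074 for spc-1, 0.15 for unc-70 at 175706_s_at, 0.12, 0.35 and 0.0014 for unc-44 at 172123_x_at, 174033_at and 176663_s_at, and 0.32 for vab-10 at 175291_at. With the block on 5 arrays it turned to 0.015 for unc-70 at 175706_s_at, 0.0096 for unc-44 at 172123_x_at and -0.054 for vab-10 at 191942_s_at. These are the same estimates as without yap-1(ys38) replicate 2, which has no partner of its number in that fit, and not a separate check. Leaving out 1 array gave -0.17 to 0.13 (spc-1, 192356_s_at), -0.12 to 0.030 and -0.17 to 0.043 (sma-1), -0.092 to 0.058 (unc-70, 175706_s_at), -0.076 to 0.24, -0.13 to 0.088, -0.24 to 0.23 and -0.056 to 0.17 (unc-44 at 171738_x_at, 172123_x_at, 174033_at and 181045_at) and -0.15 to 0.76 and -0.18 to 0.29 (vab-10 at 194232_x_at and 191942_s_at). Without a turn it gave -0.13 to -0.031 (spc-1, 173871_at), 0.19 to 0.30 (unc-70, 175686_s_at), 0.14 to 0.39, -0.37 to -0.16, -0.48 to -0.060 and 0.021 to 0.46 (unc-44 at 172153_x_at, 173125_s_at, 176663_s_at and 175561_s_at) and -0.46 to -0.11 and 0.042 to 0.60 (vab-10 at 175291_at and 182228_s_at). Where leaving out wild type replicate 1 or 3 left 1 wild-type array, it was assumed to vary like the mutant arrays.

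Between numbers 3 and 1 the count over all probe sets was 5, 933 with the 4 arrays numbered 1 and 3, 3 with no strain term, 128 with median centring, 0 with no intensity trend, and 0 to 915 on leaving out 1 array (912 and 915 without either array numbered 2, 14 and 16 without yap-1(ys38) replicate 1 or 3, 0 without wild type replicate 3). Of the 18, 0 to 1 were called, the 1 being vab-10 at 194232_x_at (-0.92) with the 4 arrays or without either array numbered 2 (adjusted p = 0.0187 and 0.0207 by limma). The difference of unc-44 at 176663_s_at turned to -0.015 with quantile normalization and -0.011 with median centring. Leaving out 1 array gave -0.084 to 0.31 and -0.35 to 0.066 (spc-1), -0.22 to 0.17 and -0.23 to 0.040 (unc-70), -0.046 to 0.32, -0.19 to 0.31, -0.13 to 1.26, -0.21 to 0.38 and -0.10 to 0.17 (unc-44 at 171738_x_at, 173125_s_at, 174033_at, 181045_at and 176663_s_at) and -0.30 to 0.64 and -0.86 to 0.30 (vab-10 at 175291_at and 182228_s_at). Without a turn it gave 0.086 to 0.28 and 0.13 to 0.45 (sma-1), -0.37 to -0.14, 0.051 to 0.29 and -0.53 to -0.14 (unc-44 at 172153_x_at, 172123_x_at and 175561_s_at) and -1.07 to -0.78 and -1.01 to -0.10 (vab-10 at 194232_x_at and 191942_s_at). The causes of these turns were not tested. Probe sets near the filter intensity, as 175561_s_at of unc-44, have the least precise values.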

Other observations

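In wild type replicate 2 the related lists parted from each other. Of the 10 genes in the epidermal hemidesmosome list 5 read at least 2-fold below the mean of wild type replicates 1 and 3 (19.6% over all genes at their brightest probe set). Among the 5 was the intermediate filament gene ifa-1 (1791, 368 and 2239 in wild type, and 1518, 1345 and 2117 in the mutant, by replicate number). Others were pat-12, a hemidesmosome component (1716, 698 and 2799, and 2129, 2314 and 2354), and unc-52, a basement membrane gene. The median log2 difference of this list was -0.90. Of the 12 elongation actomyosin genes 0 did so, with a median of 0.19, and nmy-2, the non-muscle myosin of cell division, read highest there (3192, 5687 and 4189, and 2986, 4126 and 4972). This is a single array, these genes other than the list counts were chosen after their values were seen, and the difference between lists was not tested.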
